A study of Mus musculus with 60 samples.

Results

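The genes described here were 43 genes of the cell cycle and of cell proliferation. They were listed by name and looked up in the RNA-Seq count tables by gene symbol, by a rule that used no measured value. The list was drawn up with earlier results of these data known. The tables held 46480 genes, of which 17040 had enough reads to be tested, and all 43 genes were among these. RNA-Seq measured total RNA from tissue punches of the dorsal and ventral dentate gyrus (DG) of male C57/Bl/6 mice, each sample being a pool of tissue from several mice. Mice, weaned on day 22, spent 8 weeks in standard housing (SH) or an enriched environment (EE) and were collected at 80 days of age. The EE cage was larger, housed more mice together and held running wheels and toys. The 4 groups were dorsal SH and ventral SH with 4 samples each, and dorsal EE and ventral EE with 5 samples each, in all 18 of 20 samples. The labels name no transgene or drug treatment in any group. The comparisons asked whether the RNA of dividing cells differed between the poles of the DG and between the housing conditions.

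The subgranular zone of the DG keeps dividing progenitors in adult life, and their daughters become new granule neurons. A dividing cell passes from G1, where D cyclins with Cdk4 or Cdk6 and then E cyclins with Cdk2 release the E2F factors, into S phase, where MCM helicases loaded on replication origins open the DNA, and on through G2 to mitosis, which Cdk1 with the A and B cyclins drives. Inhibitors such as p21 and p27 hold the kinases in check. Many genes of S phase are read from promoters with E2F sites, and many genes of G2 and mitosis from promoters with CCAAT boxes and a short element called CHR (cell cycle genes homology region). D cyclins and p27 are also made in cells that no longer divide, whereas Mki67 (the Ki-67 antigen), Top2a and the mitotic kinases are largely confined to cycling cells. In bulk tissue, fewer cells of a type and less RNA per cell cannot be told apart.

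The promoters of 4 genes that were higher in dorsal DG are shown, because they carry the sequence elements named above. Each stretch is the 250 bases before the RefSeq start of the gene in GRCm38.p6, written 5′ to 3′ on the strand of the gene. Capitals mark matches, on either strand, to CCAAT, to the CHR letters TTTGAA or TTCGAA, or to the E2F letters TTTCCCGC, TTTGGCGC, TTTCGCGC or TTTGCCGC. The Mki67 and Top2a stretches (chr7:135716380-135716629 and chr11:99024190-99024439, minus strand) held 2 and 4 CHR matches with 3 and 6 CCAAT matches. The Mcm5 and Mcm6 stretches (chr8:75109259-75109508, plus strand, and chr1:128359706-128359955, minus strand) held 2 and 3 E2F matches, of which 1 pair in each gene overlapped, and 2 CCAAT matches each.
Mki67: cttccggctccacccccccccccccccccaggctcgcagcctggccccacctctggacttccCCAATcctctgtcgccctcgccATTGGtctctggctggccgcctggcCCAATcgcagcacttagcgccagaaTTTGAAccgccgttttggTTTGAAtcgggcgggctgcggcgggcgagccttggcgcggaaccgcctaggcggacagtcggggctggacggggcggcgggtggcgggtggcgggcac
Top2a: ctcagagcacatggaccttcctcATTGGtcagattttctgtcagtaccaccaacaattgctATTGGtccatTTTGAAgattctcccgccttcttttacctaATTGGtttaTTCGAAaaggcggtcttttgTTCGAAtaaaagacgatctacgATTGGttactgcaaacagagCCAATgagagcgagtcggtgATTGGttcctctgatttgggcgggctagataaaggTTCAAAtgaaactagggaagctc
Mcm5: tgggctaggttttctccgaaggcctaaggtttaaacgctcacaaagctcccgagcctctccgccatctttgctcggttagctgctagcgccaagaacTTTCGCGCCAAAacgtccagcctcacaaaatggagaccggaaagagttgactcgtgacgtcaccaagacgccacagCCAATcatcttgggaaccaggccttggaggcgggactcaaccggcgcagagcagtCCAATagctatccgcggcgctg
Mcm6: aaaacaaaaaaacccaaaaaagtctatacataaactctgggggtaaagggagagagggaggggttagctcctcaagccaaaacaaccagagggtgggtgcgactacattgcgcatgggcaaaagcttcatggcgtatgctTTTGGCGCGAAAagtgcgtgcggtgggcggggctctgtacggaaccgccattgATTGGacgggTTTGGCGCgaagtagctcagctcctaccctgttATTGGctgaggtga

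RefSeq promoters were found for 36 of the 43 genes. A CCAAT match lay in at least 1 promoter of 27 of these 36 genes (75.0%), against 37.5% of all 27025 genes with a promoter. A CHR match was found for 12 genes (33.3%, against 19.6%) and an E2F match for 6 genes (16.7%, against 2.16%). The elements were spread unevenly over the roles. Of the 16 S, G2 and mitosis genes with a promoter, 15 held a CCAAT match and 9 a CHR match, while of 11 replication genes 4 held an E2F match. Among the 13 genes with a promoter that were higher in dorsal DG, 11 held a CCAAT match, 4 a CHR match and 2 an E2F match, and among the 22 with no call the numbers were 15, 8 and 4. A match describes the letters in this window and not a bound site.

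The genes were measured over a wide range of levels. Levels are given as CPM (counts divided by the library total after scaling by TMM factors), and for comparisons between genes as CPM per kb of effective transcript length. The 9 genes of the G1 and G1/S phase (D and E cyclins, their kinases and E2f1) had a median level of 7.14 CPM per kb, from 0.735 for Cdk6 to 44.3 for Cdk4. The 12 genes of replication licensing and DNA synthesis had a median of 2.12 CPM per kb, with Pcna, the sliding clamp of the DNA polymerases, highest at 28.2 and Cdc6, a loader of the MCM helicase, lowest at 0.166. The 3 inhibitors Cdkn1b (p27), Cdkn2c (p18) and Cdkn1a (p21) were at 23.2, 3.02 and 1.60 CPM per kb. The 19 S, G2 and mitosis genes were low, with a median of 0.592 CPM per kb and a highest level of 1.89 for the centromeric histone Cenpa. In this role 15 of 19 genes were below 1 CPM per kb, and their median fell at the 15.9th percentile of all tested genes. Of the 43 genes, 8 had no more than 30 counts in any sample, so that their fold changes carry wide intervals.

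**Figure D1:**
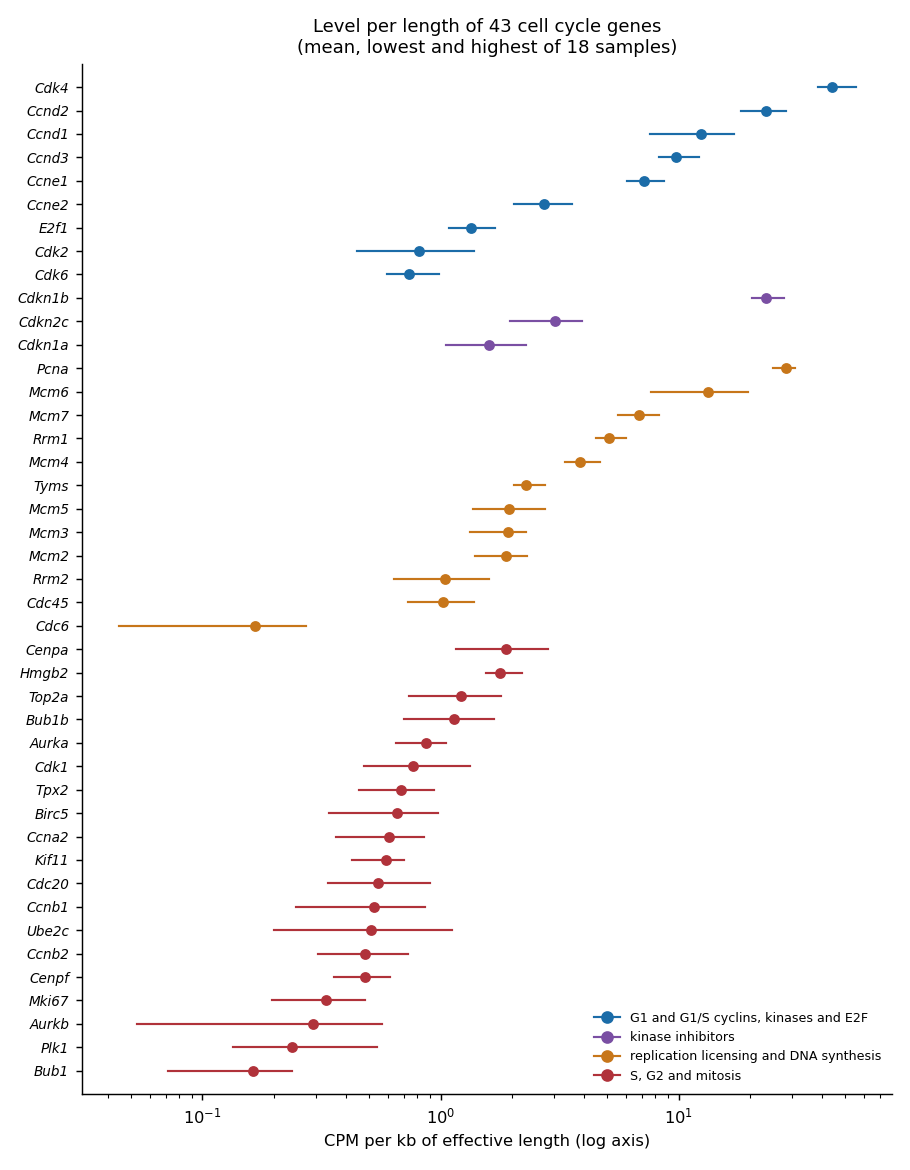
Level per length of the 43 cell cycle genes, grouped by role, as CPM per kb of effective length on a log axis. Points are means over 18 samples and lines run from the lowest to the highest sample. Cdk4, Pcna, Ccnd2 and Cdkn1b are the 4 highest, and 15 of the 19 S, G2 and mitosis genes lie below 1.

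Some libraries and tissues stood apart and touch the results that follow. SH replicate 3 was left out in both regions because its dorsal and ventral samples, labelled male, had 789 and 308 counts of Xist, a transcript of female cells, which the other 18 samples had at 0 to 16. The other 18 samples had 22919364 to 28301861 fragments on genes, with a median of 25816352. Markers of the choroid plexus, the secretory epithelium of the ventricles, were higher in ventral DG for 8 of 8 genes, with a summed level of 8.98 to 174 CPM per kb in dorsal and 343 to 1284 in ventral samples. Dorsal SH replicate 1 and ventral EE replicate 3 were the highest of each region. All 4 ependymal markers were also higher in ventral DG (2.60 to 6.06 against 6.01 to 14.1 CPM per kb), and 2 of 4 meningeal markers (9.40 to 15.3 against 18.4 to 25.2). In dorsal DG, 2 of 4 thalamus and habenula markers were higher (34.8 to 50.1 against 10.8 to 15.4). Of 4 granule neuron markers, 3 were higher in dorsal DG (218 to 245 CPM per kb against 108 to 169), and Prox1, Calb1, Dsp and C1ql2 were all present in both regions. Of all these markers Tmem212, an ependymal gene, was at 0 in 1 dorsal sample, and no other was at 0 in any sample.

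The dorsal DG held more RNA of 11 S, G2 and mitosis genes and of 3 replication genes than the ventral DG, and less of 3 G1 cyclins. In the test of region over both housings, 19 of the 43 genes passed (edgeR quasi-likelihood, adjusted p under 0.05 and fold change over 20%), 16 of them higher in the dorsal and 3 in the ventral DG. Over all tested genes 32.7% passed, 15.9% as higher in the dorsal and 16.8% as higher in the ventral DG. The median log2 fold change of the 43 genes (dorsal over ventral) was 0.23, beside -0.0046 over all tested genes. By adjusted p alone, the dorsal DG had more RNA of 24 genes and the ventral DG of 5 (29.0% and 29.3% of all tested genes). All 19 S, G2 and mitosis genes had a positive estimate (median 0.42) and 11 passed, whereas of the 9 G1 genes 3 had a positive estimate, 1 passed as higher in dorsal DG and 3 passed in the other direction.

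**Figure D2:**
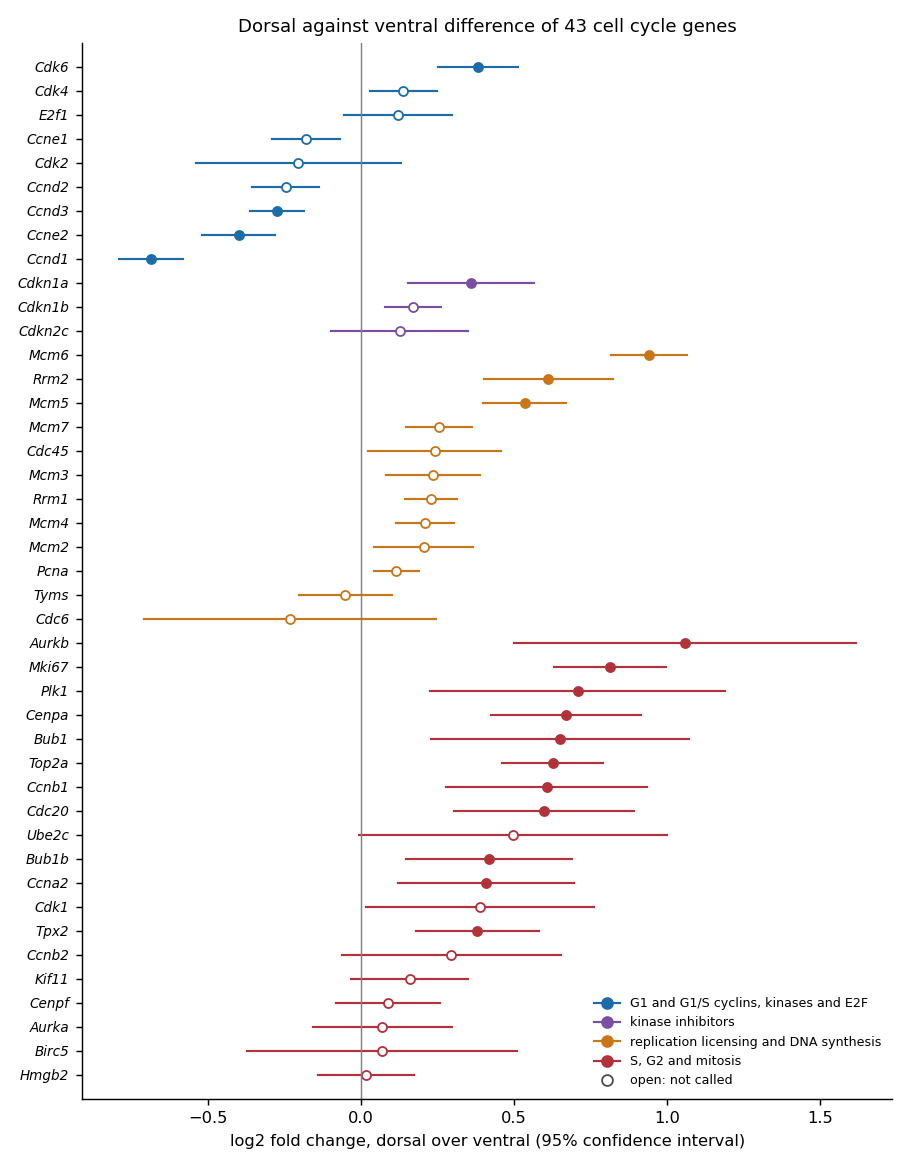
Log2 fold change of the 43 cell cycle genes, dorsal over ventral DG, mean of SH and EE, with 95% confidence intervals from the edgeR fit to 18 samples. Filled points passed the test and open points did not. The 19 S, G2 and mitosis genes lie right of 0, and Ccnd1, Ccne2 and Ccnd3 lie to the left.

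Among the S, G2 and mitosis genes, Mki67 (chr7:135689784-135716361) was measured at 3.36 to 4.76 CPM in the 9 dorsal samples (median 4.16) and at 1.94 to 2.74 CPM in the 9 ventral samples (median 2.35). The regions did not overlap, and Mki67 was 1.76-fold higher in dorsal DG (95% confidence interval 1.55 to 1.99, adjusted p = 6.13e-08). Top2a, the topoisomerase that untangles replicated DNA, was at 4.68 to 6.45 CPM in dorsal (median 5.30) and 2.63 to 3.95 CPM in ventral samples (median 3.49), again with no overlap. The difference for Top2a was 1.54-fold (1.38 to 1.73, adjusted p = 6.25e-07). Cenpa reached 1.92 to 3.02 CPM in dorsal (median 2.49) and 1.24 to 1.99 CPM in ventral samples (median 1.42), and its 1.59-fold difference (1.34 to 1.88) had the same direction in all 9 pools.

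Further regulators of mitosis passed as higher in dorsal DG, at lower counts. Cdc20, an activator of the anaphase-promoting complex, was at 0.804 to 1.37 CPM (median 0.861) against 0.509 to 0.815 CPM (median 0.658) and 1.51-fold higher in dorsal DG. Ccnb1 (cyclin B1) was at 0.782 to 1.63 CPM (median 1.19) against 0.466 to 1.09 CPM (median 0.770) and was 1.52-fold higher. Ccna2 (cyclin A2) was at 1.40 to 2.15 CPM (median 1.74) against 0.926 to 1.73 CPM (median 1.31) and was 1.33-fold higher. The call of Ccna2 was lost without SH replicate 2 (adjusted p = 0.0768), SH replicate 4 (0.0544) or EE replicate 3 (0.0556). Among kinases and checkpoint proteins, Plk1 was at 0.287 to 1.11 CPM (median 0.610) against 0.276 to 0.527 CPM (median 0.353). Bub1 was at 0.295 to 0.521 CPM (median 0.430) against 0.158 to 0.509 CPM (median 0.272), and Bub1b was at 2.48 to 4.27 CPM (median 3.13) against 1.78 to 3.25 CPM (median 2.25). Their dorsal levels were 1.63-fold, 1.57-fold and 1.34-fold the ventral ones. Plk1 rested on 7 to 26 counts a sample and Bub1 on 4 to 14. The spindle factor Tpx2 was at 2.21 to 3.50 CPM (median 2.86) against 1.70 to 2.52 CPM (median 2.12) and was 1.30-fold higher. Within this role, Ube2c, Cdk1, Ccnb2, Kif11, Cenpf, Aurka, Birc5 and Hmgb2 did not pass, with fold changes from 1.01 for Hmgb2 to 1.41 for Ube2c. Cdk1, the kinase of mitotic entry, had 10 to 29 counts a sample, with 0.427 to 1.19 CPM in dorsal and 0.475 to 0.699 CPM in ventral samples, and its 1.31-fold difference (1.01 to 1.70) had an adjusted p of 0.0691, which was 0.0468 without SH replicate 1 and 0.0320 without SH replicate 4.

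Aurkb, the kinase of the chromosomal passenger complex, had the largest fitted region difference of the 43 genes, at 2.08-fold (1.41 to 3.06), but rested on 2 to 19 counts a sample. Its counts were 7, 19, 13 and 9 in dorsal SH and 11, 15, 16, 12 and 12 in dorsal EE. In ventral DG they were 7, 2, 2 and 2 in SH and 9, 12, 8, 15 and 12 in EE. The ventral SH samples held the lowest values, and the other 3 groups overlapped. The dorsal level was 3.77-fold the ventral one in SH (2.00 to 7.10) and 1.15-fold in EE (0.746 to 1.77). The log2 fold change of Aurkb in SH, 1.92, was 2.78 without SH replicate 1 and 1.32 with all 20 samples.

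**Figure D3:**
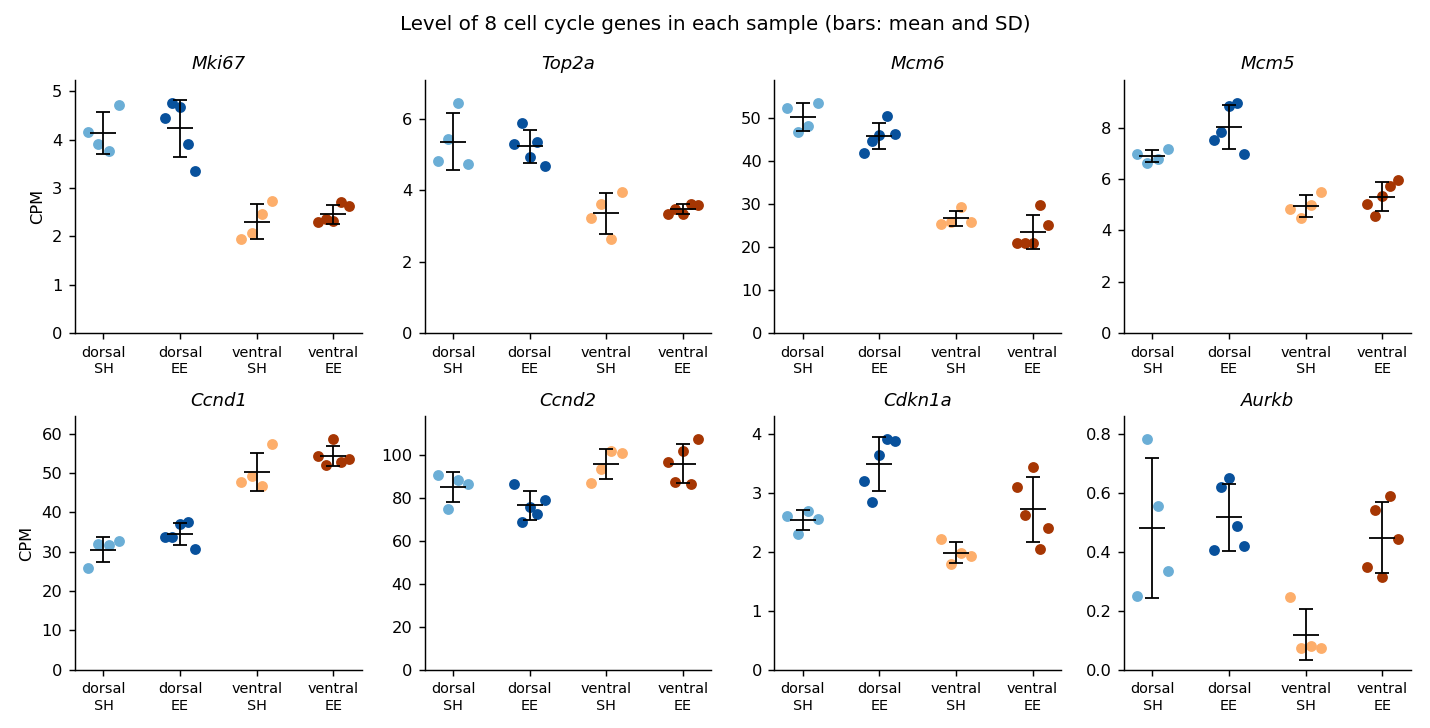
CPM of 8 cell cycle genes in each of the 18 samples, by region and housing, with the mean and SD of each group as bars. The dorsal samples of Mki67, Top2a, Mcm6 and Mcm5 all lie above the ventral ones, and those of Ccnd1 all lie below. For Aurkb the ventral SH samples are lowest, between 0.0731 and 0.247 CPM.

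Of the 12 replication genes, 3 passed as higher in dorsal DG and 9 did so by adjusted p alone, with a median log2 fold change of 0.23. Mcm6 (chr1:128331590-128359664), a subunit of the MCM2-7 helicase, was at 41.8 to 53.5 CPM in dorsal (median 46.6) and 20.9 to 29.7 CPM in ventral samples (median 25.4). The regions did not overlap, and the difference was 1.92-fold (1.76 to 2.09, adjusted p = 9.46e-12). Mcm5 was at 6.62 to 8.97 CPM (median 7.19) against 4.47 to 5.96 CPM (median 5.01), also without overlap, and was 1.45-fold higher in dorsal DG. Rrm2, the small subunit of ribonucleotide reductase, was at 2.08 to 3.02 CPM (median 2.31) against 1.22 to 2.21 CPM (median 1.55) and was 1.53-fold higher. The other 4 subunits of the helicase differed less, with Mcm2 at 1.15-fold, Mcm4 at 1.16-fold, Mcm3 at 1.18-fold and Mcm7 at 1.19-fold. They passed the adjusted p but not the fold limit, as did Pcna (1.08-fold) and Rrm1 (1.17-fold). Mcm2 was at 5.45 to 7.17 CPM in dorsal (median 6.25) and 4.38 to 7.25 CPM in ventral samples (median 5.37). Pcna was at 35.8 to 41.1 CPM in dorsal (median 39.8) and 33.2 to 39.0 CPM in ventral samples (median 36.0). Mcm3 (3.03 to 5.22 CPM over all samples), Mcm4 (11.4 to 16.0 CPM) and Mcm7 (10.0 to 14.8 CPM) passed in SH and not in EE when each housing was tested. Cdc45, Tyms and Cdc6 did not pass, with fold changes of 1.18, 0.965 and 0.850.

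The G1 cyclins ran the other way. Ccnd1 (cyclin D1, chr7:144929931-144939925) was at 25.9 to 37.6 CPM in dorsal (median 32.6) and 46.7 to 58.5 CPM in ventral samples (median 52.8). Every ventral sample was above every dorsal one, and Ccnd1 was 1.61-fold higher in ventral DG (1.5 to 1.73, adjusted p = 1.30e-10). Ccne2 (cyclin E2) was at 4.46 to 5.67 CPM in dorsal (median 5.14) and 6.05 to 7.85 CPM in ventral samples (median 6.89), again without overlap, and was 1.32-fold higher in ventral DG. Ccnd3 was at 13.9 to 16.1 CPM in dorsal (median 14.4) and 15.2 to 20.5 CPM in ventral samples (median 18.1), a 1.21-fold difference that fell under the fold limit without SH replicate 5. Ccnd2, the D cyclin with the highest level per length, was at 68.9 to 90.6 CPM in dorsal (median 79.1) and 86.4 to 107 CPM in ventral samples (median 96.8). It was 1.19-fold higher in ventral DG and did not pass over both housings, but passed in EE alone (1.25-fold). Ccne1 was 1.13-fold higher in ventral DG and did not pass the fold limit.

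Of the G1 kinases, Cdk6 passed, in the direction opposite to the cyclins. It was at 5.28 to 7.17 CPM in dorsal (median 5.92) and 4.34 to 5.22 CPM in ventral samples (median 4.53), without overlap, and was 1.30-fold higher in dorsal DG. The related kinase Cdk4 was 1.1-fold higher in dorsal DG and did not pass the fold limit, and Cdk2 (0.867-fold) and E2f1 (1.09-fold) did not pass either threshold. Of the inhibitors, Cdkn1a was at 2.30 to 3.91 CPM in dorsal (median 2.86) and 1.80 to 3.45 CPM in ventral samples (median 2.22), with overlap, and was 1.28-fold higher in dorsal DG. Cdkn1b was at 61.6 to 82.2 CPM in dorsal (median 74.2) and 60.4 to 71.6 CPM in ventral samples (median 63.6), and its 1.12-fold difference did not pass the fold limit. Cdkn2c was at 3.46 to 4.94 CPM in dorsal (median 3.79) and 2.47 to 4.89 CPM in ventral samples (median 3.50), with an adjusted p of 0.329.

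In all, 5 genes (Cdk6, Mcm5, Mcm6, Mki67 and Top2a) had every dorsal sample above every ventral sample, as did 9.51% of all tested genes. The reverse held for 2 genes (Ccnd1 and Ccne2), beside 9.44% of all tested genes. Comparing the dorsal and ventral sample of each of the 9 pools, 17 genes had the same direction in every pool (13 higher in dorsal DG and 4 lower), as did 40.4% of all tested genes. Over both housings, 7 genes that did not pass were called without 1 pool, among them Ccnd2 and Mcm3 without SH replicate 1 (log2 fold change -0.28 and 0.27), Cdk2 without EE replicate 2 (-0.35), Cdc45 without EE replicate 4 (0.27) and Ube2c without EE replicate 5 (0.61), and Mcm7 without SH replicates 1 or 5 or EE replicates 1 or 4 (0.27 to 0.29). Ccnd2 was also called without EE replicate 1 (-0.27) and Mcm3 without EE replicate 3 (0.27). The summed level of the S, G2 and mitosis genes was 13.8 to 17.7 CPM per kb in dorsal and 10.7 to 13.7 in ventral samples. That of the replication genes was 69.8 to 77.7 CPM per kb in dorsal and 55.9 to 63.0 in ventral samples. Such a sum gives more weight to genes of high level, and Mcm6 alone ran from 7.67 to 19.6 CPM per kb over the samples. Of the 12 replication genes, 9 did not pass. The sums of the G1 genes were 93.8 to 105 CPM per kb in dorsal and 104 to 110 in ventral samples, and overlapped.

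**Figure D4:**
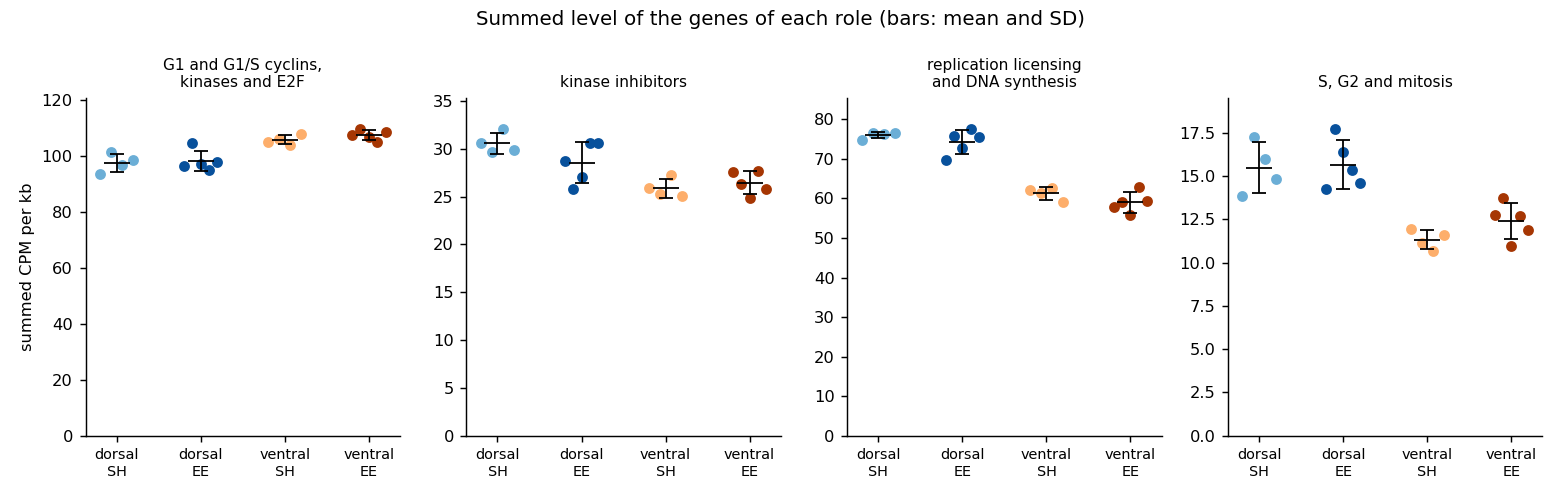
Summed CPM per kb of the genes of each role in each of the 18 samples, with the mean and SD of each group as bars. The dorsal samples lie above the ventral ones for replication and for S, G2 and mitosis genes, and SH and EE overlap in each region.

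Tested in each housing, 17 genes passed in SH (14 with more RNA in dorsal and 3 in ventral DG, beside 28.3% of all tested genes) and 15 in EE (11 and 4, beside 29.8%). Mki67 was 1.80-fold higher in dorsal DG in SH (1.49 to 2.18) and 1.71-fold in EE (1.45 to 2.03). Mcm6 was 1.89-fold and 1.95-fold higher, and Ccnd1 was 1.65-fold and 1.57-fold higher in ventral DG. Several calls rested on single pools. In SH, 9 of the 17 genes were called whichever pool was left out. The call of Bub1 was lost without any 1 of the 4 SH pools (adjusted p = 0.0559 to 0.1), and that of Mcm3 without SH replicates 2, 4 or 5 or EE replicates 1, 4 or 5 (0.0511 to 0.168). Ccnd3 fell under the fold limit without SH replicates 1, 2 or 5 or EE replicates 4 or 5 (log2 fold change -0.26 to -0.24). Calls were also lost for Mcm7 without SH replicate 2 (0.24, under the fold limit) or SH replicate 4 (adjusted p = 0.0699), for Mcm4 without SH replicate 1 (0.21, under the fold limit), for Tpx2 without SH replicate 1 (adjusted p = 0.104), for Cdc20 without SH replicate 4 (0.0572) and for Ccne2 without SH replicate 5 (0.0800). In EE, 10 of the 15 genes were called whichever pool was left out. Bub1b was lost without EE replicates 1, 3 or 5 (adjusted p = 0.0569 to 0.0994), Ccna2 without EE replicates 3 or 5 (0.162 and 0.0512), Ccnb1 without EE replicates 1 or 4 (0.0692 and 0.102) and Cdkn1a without EE replicates 4 or 5 (0.147 and 0.121). Cdk6 fell under the fold limit in EE without EE replicates 1 or 4 (log2 fold change 0.25 and 0.26). Other genes passed only without a pool. In SH these were Plk1 without SH replicate 1 (adjusted p = 0.0464), Ccnb1 without EE replicates 1 or 2 (0.0461 and 0.0478) and Cdkn1a without EE replicate 4 (0.0477). In EE they were Plk1 without SH replicates 1 or 4 or EE replicate 1 (0.0396 to 0.0446), Tpx2 without SH replicate 2 (0.0482), Mcm2 without EE replicate 4 (0.0178), and Mcm7 without EE replicates 1 or 4 (log2 fold change 0.26 and 0.27). Other settings also changed calls. Bub1 and Mcm3 were lost with DESeq2 (adjusted p = 0.0788 and 0.0626) and with no filter on low counts (0.0783 and 0.0839), Bub1 with RSEM expected counts (0.0599), and Mcm3 and Mcm7 without TMM factors (0.0544, and a log2 fold change of 0.26). With unstranded counts Mcm3 (adjusted p = 0.0586) and Ccne2 (0.675) were lost in SH and Mcm7 and Ccnd3 fell under the fold limit (0.25 and -0.26), and in EE Ccna2 was lost (0.0710) and Cdk6 fell under the limit (0.24). With all 20 samples, 13 genes passed in SH, 11 of them among the 17, with Bub1, Ccnd3, Ccne2, Mcm3, Mcm4 and Mcm7 lost and Ccnb1 and Cdkn1a gained. With the replicate block, which pairs each pool's dorsal sample with its ventral one, Bub1b (adjusted p = 0.0297) and Cdkn2c (0.0454) were also called in SH, Tpx2 (0.0497) and Plk1 (0.0440) were also called in EE, and Ccnd3 fell under the fold limit in SH (log2 fold change -0.26).

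Some markers of other cells also differed between the regions. Of 6 neuroblast and immature neuron markers, Eomes (log2 fold change 1.02), Igfbpl1 (1.09), Dcx (0.54), Sox11 (0.53) and Neurod1 (0.28) were higher in dorsal DG, and Calb2 was lower (-2.42). Their summed level was lower in dorsal (35.6 to 43 CPM per kb) than in ventral samples (61.6 to 100.0). Calb2 was the only marker in that direction and set the direction of the sum. It had 270 to 609 counts in dorsal and 1488 to 2621 in ventral samples. Of the radial glia-like and progenitor markers Hes5, Sox2, Nes and Nr2e1, Hes5 was lower in dorsal DG (-0.73) and the others did not pass. Their summed level was 27.6 to 37.7 CPM per kb in dorsal and 36.5 to 47.2 in ventral samples. Of 6 oligodendrocyte precursor markers, the dividing glia of adult brain, 1 (Olig1) was higher in ventral DG, and the sums were 63.7 to 77.1 and 71.9 to 87.6 CPM per kb. Of 6 microglia markers, 1 (Aif1) was higher in ventral DG, with sums of 169 to 196 and 175 to 197 CPM per kb, and no endothelial marker passed (55.5 to 68.4 and 58.6 to 70.1). Of the other lists, 2 of 6 astrocyte and 1 of 5 pericyte markers were higher in ventral DG, 1 neuronal marker of 4 and 2 CA pyramidal markers of 4 passed in each direction, and no oligodendrocyte marker passed. The part of these cells in the differences of the cell cycle genes was not tested. Nor was that of the granule neuron, choroid plexus, ependymal, meningeal and thalamus markers above. Without dorsal SH replicate 1 and ventral EE replicate 3, the samples with the most choroid plexus RNA, 21 of the 43 genes passed, 18 of them in the dorsal direction, Mcm3 and Mcm7 being gained. In that fit 16 genes passed in SH, where Mcm4 and Ccnd3 fell under the fold limit (log2 fold change 0.24 and -0.26) and Plk1 was gained (adjusted p = 0.0221). In EE 13 passed, Bub1b (adjusted p = 0.0847) and Ccna2 (0.0743) being lost.

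A wider list of 91 other cell cycle genes was examined in the same fit, of which 86 were tested. Of these, 19 passed as higher in dorsal DG and 6 as higher in ventral DG, with a median log2 fold change of 0.09. These were 22.1% and 6.98% of the 86, beside 15.9% and 16.8% of all tested genes, and the 25 together were 29.1%, near the 32.7% of all tested genes. By role, the spindle, kinetochore and chromosome genes gave 12 of 30 in the dorsal and 3 in the ventral direction, the 27 genes of origin licensing and DNA synthesis gave 4 and 0, and the 15 kinases, phosphatases and activators gave 0 and 1. Of 11 pocket protein and E2F genes 3 were higher in dorsal DG, and of 3 tested inhibitors 2 were higher in ventral DG. The 6 largest differences of those that passed were, in order, Racgap1, which acts in cytokinesis (2.08-fold higher in dorsal DG), Anln (1.71-fold, ventral), Cdkn1c (p57, 1.70-fold, ventral), the spindle motor Kif2c (1.60-fold, dorsal), Cenpe (1.59-fold, ventral) and the DNA polymerase subunit Pole (1.43-fold, dorsal). Anln, a scaffold of the cleavage furrow, and Cenpe, a kinetochore motor, were 2 of the 3 mitotic genes of the list that passed in the ventral direction. In SH alone the 6 largest differences were those of Kif2c (log2 fold change 1.23, dorsal over ventral), Racgap1 (1.09), Anln (-0.78), Cdkn1c (-0.65), the condensin subunit Ncapd2 (0.59) and Cenpe (-0.55). In EE alone they were those of Racgap1 (1.02), Cdkn1c (-0.88), Cenpe (-0.79), the cytokinesis motor Kif23 (0.77), Anln (-0.76) and E2f2 (0.55).

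Enriched housing was followed by few differences in these genes. In dorsal DG, 0 of the 43 genes passed (edgeR quasi-likelihood), beside 0.634% of all tested genes. At an unadjusted p under 0.05, 5 genes were higher in EE and 0 lower, beside 8.81% of all tested genes, and the likelihood ratio test and DESeq2 called 0. In ventral DG 0 of 43 genes passed, beside 0.241% of all tested genes. There 7 genes were higher and 0 lower at an unadjusted p under 0.05 (7.58% of all tested genes), and the likelihood ratio test and DESeq2 each called 1, Aurkb. The median log2 fold change (EE over SH) of the 43 genes was 0.0055 in dorsal and 0.07 in ventral DG, and over all tested genes it was -0.0034 and -0.0002.

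**Figure D5:**
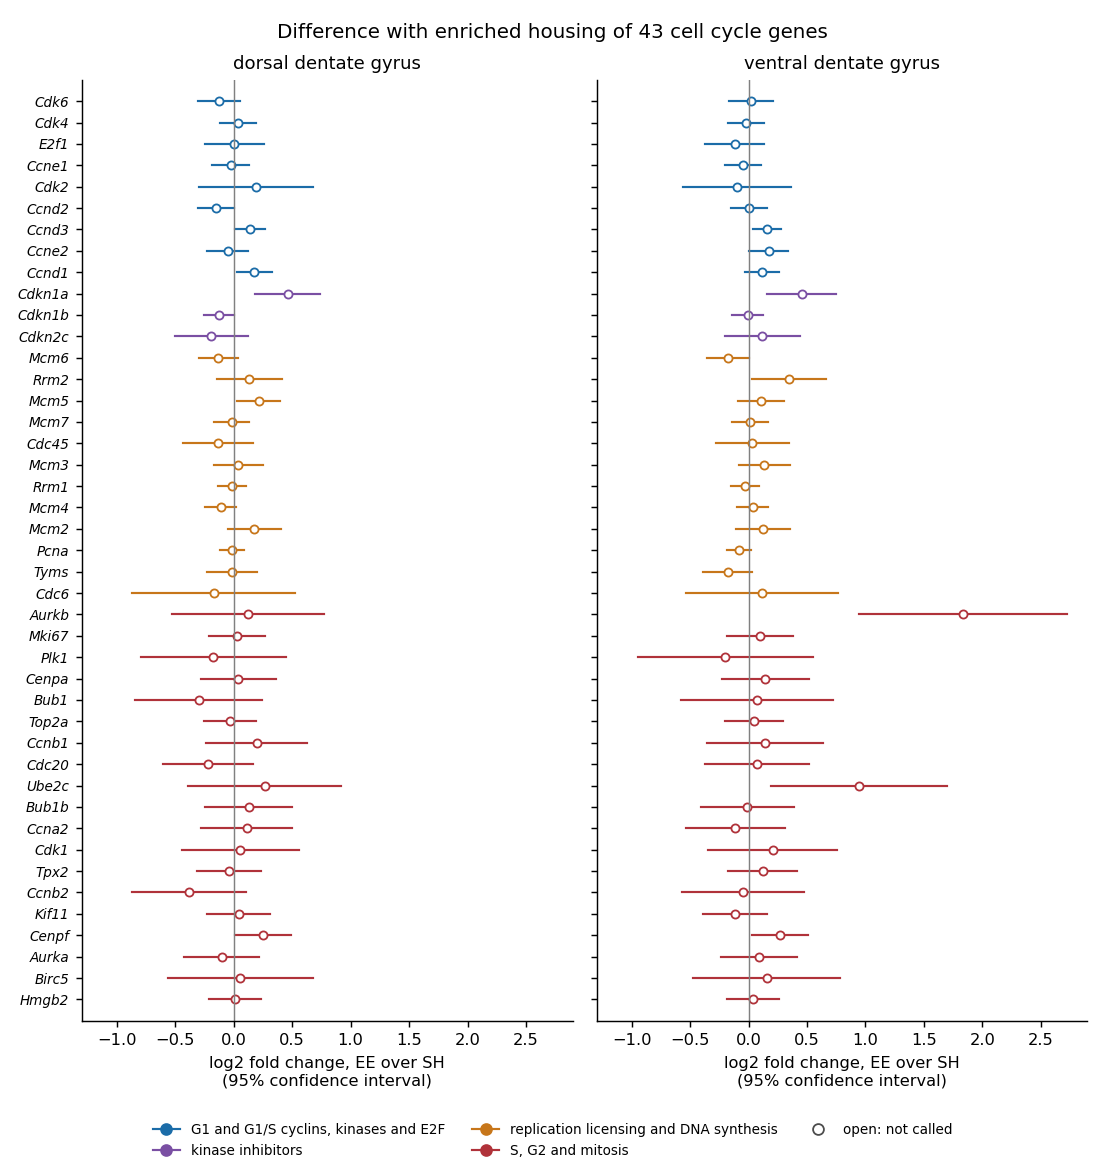
Log2 fold change of the 43 cell cycle genes, EE over SH, in dorsal and ventral DG, with 95% confidence intervals from the edgeR fit to 18 samples. All points are open because no gene passed the test in either region. Cdkn1a lies right of 0 in both regions, and Aurkb and Ube2c lie farthest right in ventral DG.

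The proliferation markers Mki67 and Top2a had ratios of EE to SH near 1 in both regions. The dorsal SH samples gave 4.16, 3.91, 3.76 and 4.73 CPM for Mki67 and the dorsal EE samples 4.46, 4.76, 4.68, 3.91 and 3.36 CPM. The ventral SH samples gave 1.94, 2.07, 2.47 and 2.74 CPM and the ventral EE samples 2.29, 2.35, 2.31, 2.72 and 2.63 CPM. The groups overlapped in both regions, and EE over SH was 1.02-fold in dorsal (0.862 to 1.2) and 1.07-fold in ventral DG (0.882 to 1.30). For Top2a the ratio was 0.979 in dorsal (0.840 to 1.14) and 1.03 in ventral DG (0.872 to 1.23), and for Cdk1 it was 1.04 (0.733 to 1.47) and 1.15 (0.786 to 1.69). Averaged over the regions, Mki67 was 1.04-fold (0.919 to 1.19) and Top2a 1.01-fold (0.897 to 1.13) its SH level. Mcm2 was 1.11-fold (0.994 to 1.24), Pcna 0.967-fold (0.919 to 1.02), Ccnd1 1.11-fold (1.03 to 1.19, adjusted p = 0.192), Ccnd2 0.950-fold (0.881 to 1.02) and Ccnd3 1.11-fold (1.04 to 1.18, adjusted p = 0.0857).

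The inhibitor gene Cdkn1a (p21, chr17:29090976-29100727) stops the cycle in response to damage and on exit to differentiation. It was called for EE in the main fit averaged over the regions, and in neither region alone. The dorsal SH samples had 2.62, 2.30, 2.69 and 2.57 CPM and the dorsal EE samples 3.20, 2.86, 3.66, 3.91 and 3.88 CPM. Every dorsal EE sample was above every dorsal SH sample, as in 2.21% of all tested genes. In the ventral SH samples Cdkn1a had 2.22, 1.80, 1.99 and 1.94 CPM and in the ventral EE samples 3.11, 2.63, 3.45, 2.05 and 2.41 CPM, where 1 EE sample overlapped the SH range. The ratio was 1.38 in dorsal (1.13 to 1.67, adjusted p = 0.152) and 1.37 in ventral DG (1.11 to 1.68, adjusted p = 0.313). Averaged over the regions Cdkn1a rose 1.37-fold in EE (1.19 to 1.58, adjusted p = 0.0128), and it was the only 1 of the 43 genes to pass, beside 1.02% of all tested genes. This fit took the dorsal and ventral sample of a pool as independent, so each pool entered once in each region. Any likeness between the samples of a pool would make this p-value too small. Over genes, the 2 samples of a pool deviated from their group means with a mean correlation of 0.13 (-0.13 to 0.31, 9 pools). For dorsal and ventral samples of other numbers the mean was -0.036. The likelihood ratio test called 2 and DESeq2 1. At an unadjusted p under 0.05, 8 genes had more RNA in EE and 1 less (12.4% of all tested genes), the latter being Mcm6 (ratio 0.898, 0.824 to 0.979, adjusted p = 0.245). The call of Cdkn1a was lost without SH replicate 2 (adjusted p = 0.0668) or SH replicate 5 (0.0543), and without SH replicate 1 Aurkb was called as well (adjusted p = 0.0328). The other inhibitors gave ratios of 0.955 for Cdkn1b (0.896 to 1.02) and 0.975 for Cdkn2c (0.836 to 1.14).

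Aurkb had the largest ratio in ventral DG, 3.57 (1.93 to 6.61), with an adjusted p of 0.0897 and the counts given above. All 5 ventral EE samples were above all 4 ventral SH samples in CPM, as they were for Ube2c, a ubiquitin-conjugating enzyme of mitotic exit, and for 1.28% of all tested genes. Ube2c had 5, 8, 4 and 8 counts in ventral SH and 9, 12, 11, 11 and 14 counts in ventral EE, a ratio of 1.92 (1.14 to 3.24, adjusted p = 0.496). Aurkb was called in ventral DG by the likelihood ratio test (adjusted p = 0.00552), by DESeq2 (0.0418), with no filter on low counts (0.0370) and without SH replicate 1 (0.0190), where the log2 ratio was 2.47 in place of 1.84. Without any other pool its adjusted p was 0.110 to 0.370. The ventral sample of the left out SH replicate 3 had 10 counts of Aurkb, and with all 20 samples the adjusted p was 0.254 and the log2 ratio 1.34.

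The effect of EE was compared between the regions by an interaction term. By this edgeR test 0 of the 43 genes passed, beside 0.00587% of all tested genes, 1 gene had an unadjusted p under 0.05 (3.25% of all tested genes), and the likelihood ratio test and DESeq2 called 0. That gene was Aurkb, with an unadjusted p of 0.00444 and an adjusted p of 1.00. For Cdkn1a the ratio of the dorsal to the ventral effect was 1.01 (0.750 to 1.35). None of the 86 other cell cycle genes passed for EE in either region, averaged over the regions or for the interaction. In the edgeR fit, an unadjusted p under 0.05 was reached in dorsal DG by 2 with more and 3 with less RNA in EE, and in ventral DG by 1 and 2. Averaged over the regions it was reached by 0 and 2, and for the interaction by 3 and 2. DESeq2 and the likelihood ratio test also called 0 of them in each of these 4 comparisons. Of the progenitor markers, Hes5 was lower in EE in the edgeR test averaged over the regions (log2 fold change -0.29, adjusted p = 0.0201). This test takes both samples of a pool as independent. In dorsal DG alone, the EE to SH ratio was 0.761 for Hes5, 0.843 for Sox2, 0.845 for Nes and 0.950 for Nr2e1, the first 3 with an unadjusted p under 0.05 and an adjusted p of 0.0691, 0.0766 and 0.191. The summed level of these 4 markers was 32.3 to 37.7 CPM per kb in dorsal SH and 27.6 to 30.2 in dorsal EE, without overlap, and 37.0 to 47.2 in ventral SH and 36.5 to 41.7 in ventral EE. Of 4 meningeal markers, Lum was lower in EE in the same averaged test, with the same limit (log2 fold change -0.29, adjusted p = 0.0137). The sums of the 4 were 11.4 to 15.3 CPM per kb in dorsal SH, 9.40 to 13.6 in dorsal EE, 18.4 to 22.8 in ventral SH and 18.6 to 25.2 in ventral EE. The part of these cells in the values of the cell cycle genes was not tested.

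Among the 43 genes, 14 shared exonic bases with a gene on the opposite strand in GENCODE vM21, and reads were counted by strand. On the same strand, Mcm7 holds the microRNA genes Mir25 and Mir93 in 3.89% of its exonic bases and Top2a an RNA gene (Gm23451) in 1.35%. Without regard to strand, Ccne2, which overlaps Ints8, differed less between regions (log2 fold change -0.19) and was not called.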

How the data were processed

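RNA-Seq libraries (TruSeq stranded total RNA) were prepared by the authors from pooled DG tissue. Per the submitters' processing notes, the tools were Trim Galore 0.4.0, STAR 2.5.1b and RSEM 1.2.30, and the authors' methods name mm10 and Gencode vM7. The authors deposited STAR read counts per gene without normalization, of which the column for the library's strand was used. The authors also deposited RSEM expected counts (rounded here) and TPM, estimated by RSEM from the alignments, which served only alternatives and effective lengths. Their FPKM column was not used.

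Counts of 18 samples were fitted with edgeR 4.0.16 in R 4.3.3 (TMM factors, quasi-likelihood test, 1 mean per group) over the 17040 genes whose count exceeded 10 in 2 or more samples. A gene was called at a Benjamini-Hochberg adjusted p under 0.05 over all tested genes and a fold change over 20%. The tests were region over both housings and in each, EE in each region and averaged, and the interaction. Intervals are 95%. The 43 genes and all lists were chosen with earlier results of these data known. Values by sample are given for genes called in any test and for Mki67, Top2a, Cdk1, Ccnd1, Ccnd2, Ccnd3, Mcm2, Pcna, Cdkn1a, Cdkn1b and Cdkn2c. Of the other cell cycle genes, up to 6 called per test with the largest fold change are named.

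Dorsal and ventral samples of a replicate number and housing were taken as 1 pool of mice, since the study counts 5 samples per housing. SH and EE samples with the same number and region deviated together from their group means in all 8 pairs (correlation over genes 0.106 to 0.276), so the number was also fitted as a block. All 40 pairs of samples within a group differed by more than sampling noise (chi-square per gene 2.77 to 35.8). In the main fit, p-values measure the spread between the samples of a group, each from another pool. That fit takes the dorsal and ventral sample of a pool as independent. Its region tests therefore do not use the pairing, and its EE tests averaged over the regions count each pool in both regions. For EE the block is the replicate number and not the pool. With 22919364 to 28301861 fragments per sample, precision is lowest for genes with few counts.

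Alternatives were the likelihood ratio test, DESeq2 1.42.0, RLE size factors, no filter, a TPM filter, no fold limit, unstranded counts, expected counts, all 20 samples, the block, each region alone and leaving out each pool. Fits without the samples richest in choroid plexus RNA and without TMM factors were added after the data were seen. The procedure was tested on simulated data. A gene of the marker lists is not reported here. Promoters came from RefSeq (GRCm38.p6), and all 40 stretches of the 36 genes matched the genome.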

Additional observations from a re-analysis of the deposited data

Results flagged for a closer look

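In 5 of the 112 groups of samples examined (28 genes in 4 groups), 1 sample lay farther from the others than Dixon's 95% limit, where chance gives about 1 group in 20. In dorsal SH, replicate 1 had 25.9 CPM of Ccnd1, below the 31.6 to 32.6 CPM of the other samples. In ventral SH, replicate 4 stood apart for 3 genes, with 71.6 CPM of Cdkn1b (others 62.1 to 63.6), 29.3 CPM of Mcm6 (others 25.4 to 25.9) and 10.2 CPM of Mcm7 (others 11.4 to 11.5). Also in ventral SH, replicate 1 had 0.247 CPM of Aurkb, above the other samples at 0.0731 to 0.0810, on a count of 7 against 2.

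The pool left out of every comparison held Xist counts of 789 in its dorsal and 308 in its ventral sample. Its dorsal sample had 4.26 CPM of Mki67 and its ventral sample 3.42 CPM, the latter above the 1.94 to 2.74 CPM of the other ventral samples. That ventral level was also above the lowest dorsal sample used, so the regions overlap for Mki67 once this pool is included. Its Ccnd1 levels were 32.7 and 56.7 CPM, its Mcm6 levels 45.7 and 25.9 CPM, and its Top2a levels 4.99 and 4.13 CPM. Of the genes called for region, Ccne2, Aurkb, Plk1 and Bub1 ran against the main fit in this pool. Its dorsal and ventral samples had 6.17 and 5.58 CPM of Ccne2 and 0.304 and 0.393 CPM of Aurkb. They had 0.521 and 0.589 CPM of Plk1 and 0.217 and 0.275 CPM of Bub1. The other called genes kept their direction. The dorsal Ccne2 level of this pool lay within the range of the ventral samples used.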

How the results depend on the processing

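The number of the 43 genes called for region moved from 19 to 6 when genes had to exceed a TPM of 1 in 3 samples, because that filter left 19 of the 43 genes to test, and to 29 with no fold limit. The TPM filter gave 9 genes in SH and 7 in EE. For EE in ventral DG, 1 gene was called by the likelihood ratio test, by DESeq2 and with no filter on low counts. For EE averaged over the regions, 2 were called by the likelihood ratio test and with RSEM expected counts, and 0 under the TPM filter, which removes Cdkn1a. With the replicate block, which pairs samples of a pool or, for EE, of a number, the calls were 19 for region, 18 in SH and 17 in EE, and 0, 0, 1 and 0 for EE in dorsal, EE in ventral, EE averaged and the interaction. Leaving out each pool gave 18 to 23 calls for region, 13 to 18 in SH, 12 to 16 in EE, 0 for EE in dorsal DG, 0 to 1 in ventral DG (Aurkb, without SH replicate 1), 0 to 2 averaged over regions, and 0 for the interaction. Log2 ratios of EE near 0 turned sign. With all 20 samples these were Mki67 and Top2a in ventral DG (-0.032 and -0.014) and averaged (-0.0076 and -0.014). Without the samples richest in choroid plexus RNA they were Aurkb in dorsal DG (-0.10) and Top2a averaged (-0.0084). Leaving out each pool, Aurkb in dorsal DG ranged from -0.10 to 0.46, Mki67 in dorsal DG from -0.019 to 0.10, and Top2a from -0.082 to 0.071 in dorsal DG, -0.046 to 0.14 in ventral DG and -0.026 to 0.031 averaged. The cause was not tested. Of the other values of single genes, 1394 kept direction and side of the threshold, 63 lost and 21 gained a call. In TPM, the dorsal over ventral ratio of all tested genes had a median of 0.17 (log2), beside which the ratios of single genes are to be read. Of the called genes, Bub1 stood at 0.10 in TPM (0.66 in CPM), Ccne2 at -0.098 (-0.41), Ccnd3 at -0.14 (-0.28) and Bub1b at 0.82 (0.42). Counts of 30 or fewer in every sample limit 8 of the 43 genes.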
